A study of Homo sapiens with 4 samples.

Results

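The replication-dependent histone genes encode the H1, H2A, H2B, H3 and H4 proteins that package newly made DNA. They were taken as the protein-coding rows of the authors' deposited table whose gene name begins with HIST1, HIST2, HIST3 or HIST4, which gave 68 genes of the 34675 in the table and of its 18327 protein-coding rows. By class they were 6 H1, 16 H2A, 18 H2B, 15 H3 and 13 H4 genes. By location they were 54 genes of the HIST1 cluster on chromosome 6, 10 of the HIST2 cluster and 3 of the HIST3 cluster on chromosome 1, and HIST4H4 on chromosome 12. HIST2H3PS2 was kept because the table types it as protein-coding.

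The libraries came from MDA-MB-231, an established human line of triple-negative breast carcinoma. The LKB1 line was a stable line carrying pcDNA with FLAG-tagged wildtype LKB1, and it was set against the vector line, a stable line carrying pcDNA with no insert. LKB1, the product of STK11, is a protein kinase that activates AMPK and related kinases and is known as a tumour suppressor. Each line had 2 libraries, made from total RNA of cells on plastic by a stranded whole-transcriptome method, and no further treatment is given. Each condition is 1 stable line, so the plasmid and the line cannot be told apart.

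Replication-dependent histone mRNAs are the metazoan mRNAs that end without a poly(A) tail. Their 3′ end is a conserved stem-loop that is bound by the stem-loop binding protein SLBP and cut with the help of the U7 small nuclear RNP, and the same structure serves in their translation and in their rapid decay when DNA synthesis stops. Their transcription is driven at the entry into S phase by NPAT, a target of cyclin E and CDK2. Each class is encoded by many gene copies with nearly the same product, most of them clustered and many arranged as H2A and H2B genes that face away from each other. A few genes in the clusters are known mainly from testis, among them HIST1H2AA, HIST1H2BA and HIST1H1T.

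The stem-loop that stands in for the poly(A) tail is shown here for 4 genes that fell in the LKB1 line and 4 that did not pass the test, because the RNAs of both sets carry it. The 16 bases of the stem-loop are in capitals, with 5 bases on each side, as DNA letters from GENCODE 29 transcripts on chromosome 6. The first 4 sequences are from genes that fell.
HIST1H3G: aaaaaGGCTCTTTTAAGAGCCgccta
HIST1H2BG: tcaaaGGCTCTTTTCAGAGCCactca
HIST1H4E: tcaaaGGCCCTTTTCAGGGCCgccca
HIST1H2AE: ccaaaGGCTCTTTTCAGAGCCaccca
HIST1H2BC: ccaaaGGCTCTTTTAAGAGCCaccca
HIST1H2AC: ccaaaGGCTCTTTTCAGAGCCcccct
HIST1H4H: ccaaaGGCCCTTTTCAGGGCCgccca
HIST1H4B: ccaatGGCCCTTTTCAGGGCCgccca
HIST1H3G and HIST1H2BC, which had the lowest and the highest log2 fold of these 8, both hold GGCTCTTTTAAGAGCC, and HIST1H2BG, HIST1H2AE and HIST1H2AC all hold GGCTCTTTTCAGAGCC. A stem-loop of this kind was found in the transcripts of 29 of the 68 genes, among them 4 of the 12 that fell and 16 of the 37 with at least 200 reads. The commonest form, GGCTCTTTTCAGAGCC, was in 16 genes, and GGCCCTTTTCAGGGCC and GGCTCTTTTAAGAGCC were in 5 each. Many of the annotated transcripts end at the stop codon, so a gene without a match is not shown to lack the structure.

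Promoters are shown for 2 genes that fell, HIST1H2BG and HIST1H3G, and for 1 highly read gene of the same class for each, HIST1H2BC and HIST1H3H. The windows are RefSeq sequences of the build GRCh38.p14, from 250 bases before to 50 bases after the start of the gene, 5′ to 3′ on the gene's strand. Capitals mark TATAAA (1 form of the TATA box), CCAAT (the CCAAT box) and ATTTGCAT (the octamer of H2A and H2B promoters) on either strand, with each motif searched separately even where matches could overlap.
HIST1H2BG, chr6:26216639-26216938, minus strand: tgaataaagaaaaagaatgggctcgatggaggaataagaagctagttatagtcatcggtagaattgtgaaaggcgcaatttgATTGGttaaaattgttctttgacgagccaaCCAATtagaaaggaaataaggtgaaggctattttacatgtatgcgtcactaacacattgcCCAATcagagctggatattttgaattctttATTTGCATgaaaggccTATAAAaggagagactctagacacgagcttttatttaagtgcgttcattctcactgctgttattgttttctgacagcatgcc
HIST1H2BC, chr6:26123877-26124176, minus strand: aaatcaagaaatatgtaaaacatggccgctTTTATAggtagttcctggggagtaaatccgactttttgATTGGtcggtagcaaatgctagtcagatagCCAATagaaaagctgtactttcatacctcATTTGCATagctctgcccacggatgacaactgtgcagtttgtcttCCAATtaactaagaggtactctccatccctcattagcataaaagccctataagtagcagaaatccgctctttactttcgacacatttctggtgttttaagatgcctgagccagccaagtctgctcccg
HIST1H3G, chr6:26271364-26271663, minus strand: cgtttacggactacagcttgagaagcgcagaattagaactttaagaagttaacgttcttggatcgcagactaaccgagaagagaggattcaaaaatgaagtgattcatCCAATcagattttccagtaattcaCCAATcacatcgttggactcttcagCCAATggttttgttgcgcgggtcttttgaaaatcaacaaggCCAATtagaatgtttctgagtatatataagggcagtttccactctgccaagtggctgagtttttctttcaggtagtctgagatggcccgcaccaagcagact
HIST1H3H, chr6:27809801-27810100, plus strand: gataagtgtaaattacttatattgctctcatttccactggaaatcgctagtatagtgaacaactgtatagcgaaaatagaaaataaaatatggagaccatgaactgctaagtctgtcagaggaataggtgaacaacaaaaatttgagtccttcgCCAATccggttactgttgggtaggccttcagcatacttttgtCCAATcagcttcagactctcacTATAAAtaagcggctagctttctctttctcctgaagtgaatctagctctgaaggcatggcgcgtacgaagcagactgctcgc
HIST1H2BG and HIST1H2BC hold all 3 motifs, and in HIST1H2BC the TATAAA match is on the other strand. That match is also the TATAAA in the window of HIST1H2AC, the H2A gene that faces away from it. HIST1H3G and HIST1H3H hold CCAAT but not the octamer, and HIST1H3H also holds TATAAA. A RefSeq promoter was matched for 59 of the 68 genes. CCAAT was in 86.4% of these, against 34.6% of 35116 RefSeq promoters of the same length, and it was in all 14 H2A, 18 H2B, 10 H3 and 6 H1 promoters but in 3 of 11 H4 promoters. ATTTGCAT was in 44.1% of the histone promoters, against 1.8% of all promoters, with 11 of 14 in H2A genes, 14 of 18 in H2B genes, 1 of 10 in H3 genes and 0 in H1 and H4 genes. TATAAA was in 66.1%, against 11.5% of all promoters. The 1 H3 promoter with ATTTGCAT was that of HIST1H3D. Its window is identical to that of HIST1H2AD, so no separate H3 promoter holds the octamer. Both genes fell, and the shared window is counted for each of them throughout these figures. Windows of H2A and H2B genes that face away from each other can also overlap, as do those of HIST1H2BG and HIST1H2AE. With both strands searched, 1 match can be counted for both genes, so the counts are not of separate places. Among genes that fell, TATAAA was in 4 of 11 promoters, CCAAT in 10 and ATTTGCAT in 7, and among those that did not pass the test these motifs were in 35, 41 and 19 of 48. These matches are a description of the letters in each window. Only the exact letters TATAAA were searched, and a window without them can hold close forms such as the tatataag of HIST1H3G. A window without TATAAA is therefore not shown to lack a TATA box.

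The authors' deposited table gives 1 comparison over the 4 libraries, with no value per library, so each read total below adds up both libraries of a line and was worked out from the fold column. The ratio of depths recovered in the same way was 1.04, LKB1 over vector. The table does not name its direction, and the fold of STK11 was used to read it as LKB1 over vector. STK11 (ENSG00000118046.10, hg19 chromosome 19, 1189406 to 1228428, plus strand) had 2112 reads in the LKB1 line and 1321 in the vector line, a log2 fold of 0.62 (adjusted p = 0.00105 in the authors' deposited table), and its own direction is therefore no separate evidence. STK11 was not called by an exact negative binomial test that assumed a variation of 0.2 between libraries (adjusted p = 0.552), and every direction below rests on its fold. All adjusted p-values below are from that table, adjusted over all 34675 rows, and none can be set against a spread between libraries that is visible here. Nothing in the labels says that the libraries of a line came from separate cultures, so the p-values rest on a spread between libraries that may be technical only. In their titles the LKB1 libraries carry fmRNA where the vector libraries carry mRNA, and 1 LKB1 library carries another run tag than the other 3 libraries. The effect of either was not tested.

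A check of identity found 1 group of 2 that did not match its cell line. CDKN2A, a tumour suppressor gene that is deleted in MDA-MB-231 cells, had 3 reads in the LKB1 line and 32 in the vector line, 11.1-fold lower in the LKB1 line with a counting interval of 3.47 to 56.6 (adjusted p = 0.000111). Its neighbour MTAP, chosen after its values were seen, had 2 and 37 reads in the LKB1 and vector lines. Of 8 endothelial markers measured, 7 fell in the LKB1 line, and the markers together had 626 reads in the LKB1 line and 2296 in the vector line. The remaining marker, EGFL7, went the other way, with 336 reads in the LKB1 line and 225 in the vector line (log2 0.52, adjusted p = 0.131). It was higher at an unadjusted p under 0.05. The defining endothelial marker CDH5 had 18 and 121 reads and VWF 25 and 203 reads in the LKB1 and vector lines. Of 7 fibroblast markers 3 fell and none rose, with 577 and 824 reads in all, and 1 had no reads. At an unadjusted p under 0.05 the fibroblast marker COL1A2 was higher, with 160 and 97 reads in the LKB1 and vector lines (log2 0.66, adjusted p = 0.0656). Of 4 leukocyte markers LCP1 fell and CD14 rose, with 347 and 771 reads in all. None of 6 genes that mark MDA-MB-231 cells by their presence or low level passed the test, with 1 at an unadjusted p under 0.05; EGFR had 5726 reads in the LKB1 line and 6075 in the vector line, and PGR had none and 4. The part of these RNAs in the histone values below was not tested, and in whole cultures fewer cells of a type and less RNA per cell cannot be told apart.

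Of the 68 histone genes, 12 fell in the LKB1 line at an adjusted p under 0.05, where 3.24% of all genes in the table fell, and none rose, where 2.55% of all genes rose. Among protein-coding genes alone, 5.6% fell and 4.1% rose. At an unadjusted p under 0.05 there were 20 histone genes lower in the LKB1 line, against 6.83% of all genes, and 1 higher, against 5.62%. All 12 genes that fell are in the HIST1 cluster. They were 1 H1, 3 H2A, 3 H2B, 4 H3 and 1 H4 gene. All 12 had fewer than 200 reads over the 4 libraries, and 8 of them had fewer than 40. Of the 37 histone genes with at least 200 reads none was called in either direction, where 5.97% of protein-coding genes with as many reads fell and 6.2% rose. Of the 18 histone genes with at least 10 and fewer than 200 reads, 12 fell and none rose, where 11.3% of protein-coding genes in that range fell and 2.9% rose. The median log2 fold of these 18 was -2.61, and that of all protein-coding genes in the range was -0.19. This range is set on the total of both lines. Except for HIST1H2BA, the genes that fell had at most 8 reads in the LKB1 line and reached 10 only through the vector line. The 12 of 18 and the median of -2.61 are therefore a description and no separate support. The genes that fell held 78 reads in the LKB1 line and 473 in the vector line, which was 0.101% of all histone reads in the LKB1 line and 0.569% in the vector line. Under an adjusted p of 0.01 there were 8 histone genes lower, against 2.31% of all genes, and none higher, against 1.64%, and under an adjusted p of 0.1 there were 12 lower, against 3.87%, and none higher, against 3.09%. An exact negative binomial test on the recovered totals called 8 lower (background 1.7%) and none higher (background 0.802%) with a variation of 0.2 between libraries assumed. With a variation of 0.4 it called 5 lower (background 0.625%) and none higher (background 0.142%).

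**Figure D1:**
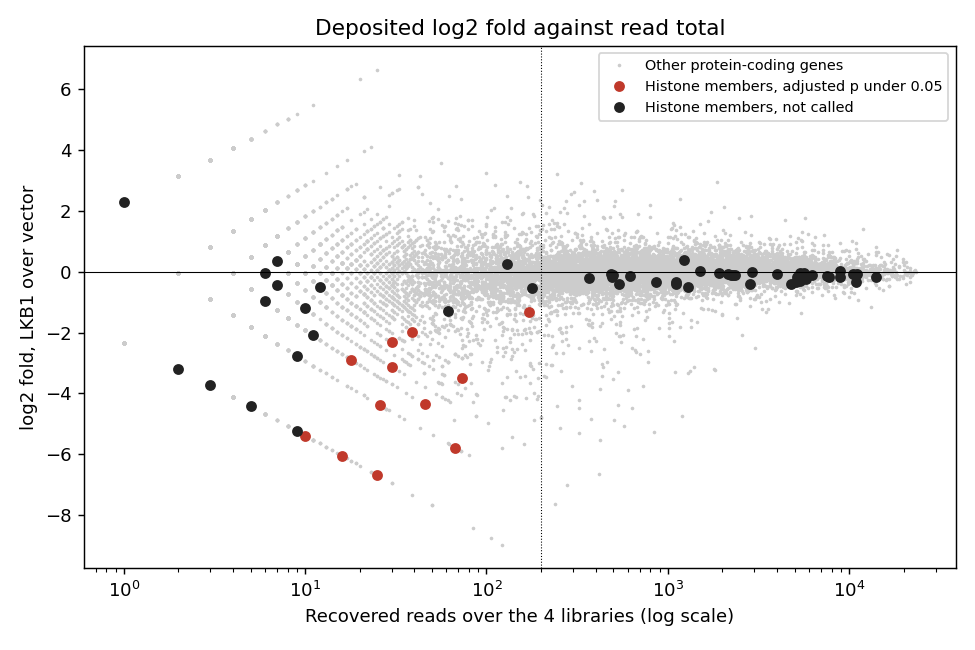
The deposited log2 fold (LKB1 over vector, vertical axis) of each protein-coding gene is plotted against its recovered reads over the 4 libraries (log scale). Each point is 1 gene and the dotted line stands at 200 reads: the 12 histone genes that fell all lie left of it, and the 37 to its right lie between -0.51 and 0.37.

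The 4 H3 genes that fell encode the H3.1 protein. HIST1H3G (ENSG00000256018.1, chromosome 6, 26271146 to 26271612, minus strand, hg19) had 1 read in the LKB1 line and 66 in the vector line. With so few reads in the LKB1 line the ratio is wide, 68.6-fold lower with a 95% counting interval of 11.9 to 2751, and the deposited log2 fold was -5.78 (adjusted p = 2.89e-12). HIST1H3D had 6 reads in the LKB1 line and 67 in the vector line, 11.6-fold lower (5.06 to 32.8, adjusted p = 4.74e-10). Its hg19 span overlaps that of HIST1H2AD on the same strand, so reads of these genes could be shared. HIST1H3I had no reads in the LKB1 line and 25 in the vector line, at least 8.66-fold lower when set against a floor of 3 reads over the group (adjusted p = 2.21e-05). HIST1H3F had 5 reads in the LKB1 line and 25 in the vector line, 5.2-fold lower (1.96 to 17.4, adjusted p = 0.0274). Its fold also fitted a second pair of totals, and the smaller pair is given. Intervals and floors cover counting error only.

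Of the H2B genes, HIST1H2BG had 2 reads in the LKB1 line and 44 in the vector line, 22.9-fold lower (5.97 to 195, adjusted p = 5.43e-08). HIST1H2BI had none and 10 reads in the LKB1 and vector lines, at least 3.47-fold lower (adjusted p = 0.0460). HIST1H2BA, the testis H2B gene, was the most read of the genes that fell, with 50 reads in the LKB1 line and 121 in the vector line, 2.52-fold lower (1.8 to 3.57, adjusted p = 0.00404). It was the only one of the 12 with more than 10 reads in the LKB1 line. Of the H2A genes, HIST1H2AD had 1 read in the LKB1 line and 25 in the vector line, 26.0-fold lower (4.26 to 1067, adjusted p = 0.000155). HIST1H2AL had none and 16 reads in the LKB1 and vector lines, at least 5.55-fold lower (adjusted p = 0.00203). HIST1H2AE had 8 reads in the LKB1 line and 31 in the vector line, 4.03-fold lower (1.81 to 10.1, adjusted p = 0.0185).

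HIST1H4E was the 1 H4 gene that fell, with 3 reads in the LKB1 line and 27 in the vector line, 9.36-fold lower (2.88 to 48.2, adjusted p = 0.000769). HIST1H1B, which encodes a linker histone that binds DNA between nucleosomes, was the 1 H1 gene, with 2 reads in the LKB1 line and 16 in the vector line, 8.32-fold lower (1.96 to 74.6, adjusted p = 0.0411). Each of the 12 genes thus had at most 50 reads in the LKB1 line and between 10 and 121 in the vector line. Per kilobase of coding sequence the level of these genes had a median of 4.1 reads in the LKB1 line and 71.8 in the vector line, and the 37 genes with at least 200 reads had medians of 4058.3 reads in the LKB1 line and 5132.7 in the vector line. Both medians of the 37 are the values of HIST1H4A, and these levels are not scaled for depth. The median log2 fold of the 37 was -0.15. Few of the 50-base stretches in the transcripts of the genes that fell occur in another histone gene (median 0%, highest 4.1%). Only exact matches were counted, so copies that differ by a few bases are not covered. The totals of the genes that fell are therefore not shown to be free of reads from near copies. All 50-base stretches were shared for HIST1H2AK, HIST1H4K, HIST2H2AA3, HIST2H3A and HIST2H3C, whose own read totals are therefore uncertain. Most were shared for HIST2H4A (97.5%), HIST1H2AM (86.3%), HIST1H4J (81.2%), HIST2H3D (80.4%) and HIST1H2BK (74.1%), among others. The totals of these genes are uncertain as well.

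Of the 12 genes that fell, 11 stand in 2 runs of neighbouring HIST1 genes with few reads. The runs were drawn after the values were seen, as at least 4 neighbours in chromosome order with fewer than 200 reads each. The longer run covers 84.7 kb of hg19 chromosome 6, from 26188938 to 26273622, and holds 14 genes, from HIST1H4D to HIST1H2BI. It had 33 reads in all in the LKB1 line and 328 in the vector line, 10.3-fold lower (7.21 to 15.3), and 8 of its genes fell. The 6 others each had at most 12 reads over the 4 libraries. HIST1H4D had 5 and 7 reads in the LKB1 and vector lines, HIST1H1D had 2 and 9, HIST1H2BF had none and 5, HIST1H2BH had none and 9, HIST1H3E had none and 3, and HIST1H4F had none in either. The genes on either side of the run were read many times more: HIST1H2BE had 246 reads in the LKB1 line and 255 in the vector line, and HIST1H4H, an H4 gene, had 6719 and 7324.

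The shorter run covers 8.3 kb, from 27833034 to 27841289, and holds HIST1H2AL, HIST1H1B, HIST1H3I and HIST1H4L. It had 2 reads in the LKB1 line and 59 in the vector line, 30.7-fold lower (8.12 to 259), and the first 3 of its genes fell. HIST1H4L had none and 2 reads. Its neighbours were again highly read, HIST1H2BN with 1066 and 1089 reads and HIST1H3J with 2295 and 2788 reads in the LKB1 and vector lines. Outside both runs, 1 of 50 histone genes fell, HIST1H2BA. The 13 genes with fewer than 200 reads outside the runs had 230 reads in the LKB1 line and 355 in the vector line, a depth-scaled ratio of 0.623 (0.526 to 0.738).

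**Figure D2:**
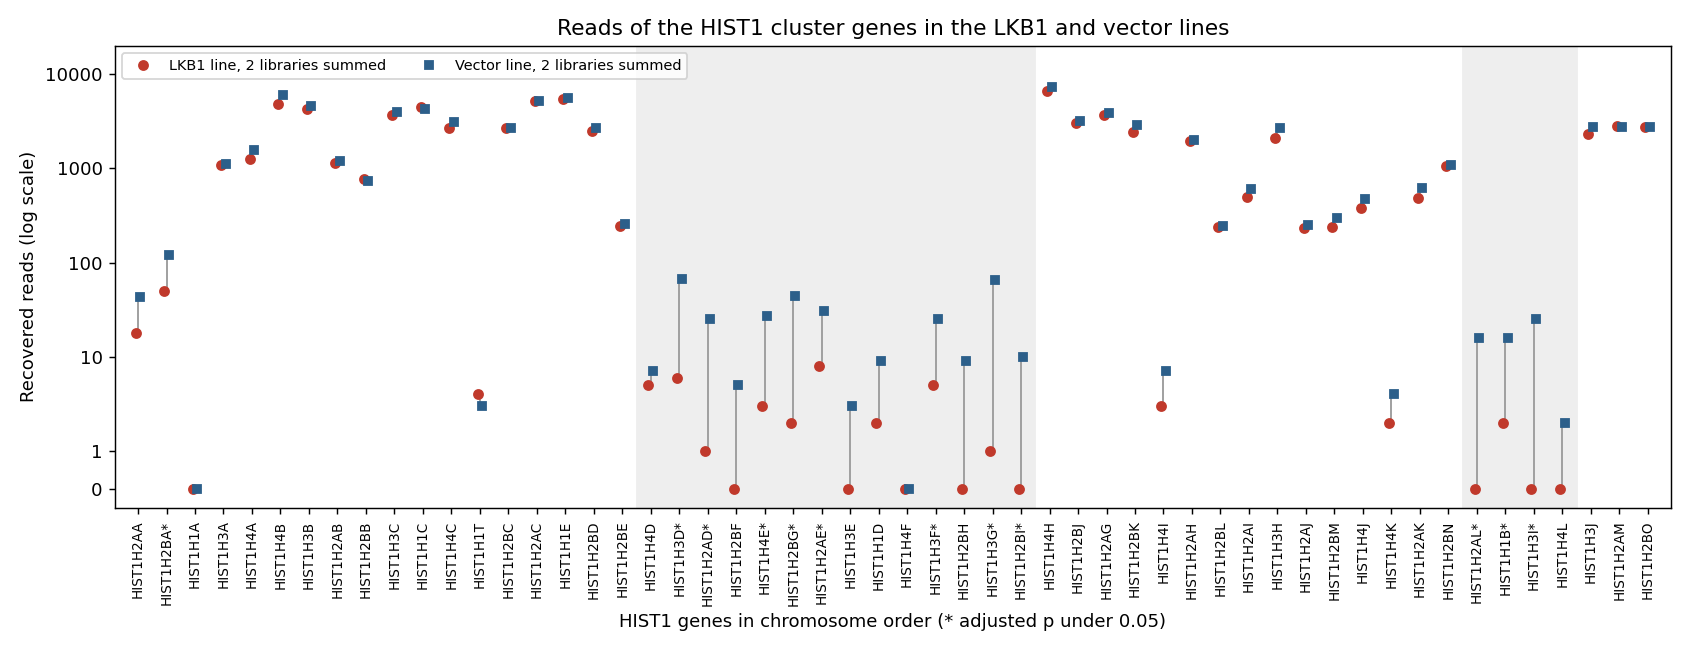
Recovered reads (vertical axis, log scale with 0 shown at the foot) are plotted for each HIST1 gene in chromosome order, as 1 point per line that sums its 2 libraries, with an asterisk on the genes that fell. In the 2 shaded runs no gene passes 8 reads in the LKB1 line or 67 in the vector line, and the points of both lines nearly coincide for the highly read genes.

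The highly read genes made up nearly all histone RNA, and their values lay close together in the 2 lines. All 68 genes summed to 76974 reads in the LKB1 line and 83172 in the vector line, a depth-scaled ratio of 0.890 (0.881 to 0.899), against 1.01 for all other protein-coding genes. The median log2 fold was -0.17 over the 44 histone genes with at least 40 reads, and -0.02 over all protein-coding genes with as many. Over the 37 genes with at least 200 reads it was -0.15, and 34 of these 37 values, or 91.9%, were below 0, against 51.5% of protein-coding genes. The 3 values above 0 were those of HIST2H2AB, HIST1H2BB and HIST1H1C. No test was run over the list, and none of these genes passed the threshold alone.

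The classes differed in their summed reads. H1 genes had 10047 reads in the LKB1 line and 9920 in the vector line, a depth-scaled ratio of 0.974 (0.947 to 1.002). H2A genes had 17764 and 18297, a ratio of 0.934 (0.915 to 0.953), and H2B genes had 18593 and 19621, a ratio of 0.911 (0.893 to 0.930). H3 genes had 13761 and 15760, a ratio of 0.840 (0.821 to 0.859), and H4 genes had 16809 and 19574, a ratio of 0.826 (0.809 to 0.843). The intervals of H3 and H4 overlapped each other and lay below the rest. Those of H1 and H2A overlapped, as did those of H2A and H2B. They cover counting error only and hold no spread between libraries, so they give no test of the classes. The median log2 fold of genes with at least 200 reads followed nearly the same order, at -0.03 in 2 H1 genes, -0.11 in 10 H2A genes, -0.10 in 12 H2B genes, -0.19 in 6 H3 genes and -0.35 in 7 H4 genes. The H3 value depended on the read minimum: it was -0.34 over the 9 H3 genes with at least 40 reads, beside -0.35 over the same 7 H4 genes, and -0.42 over all 14 H3 genes with reads, beside -0.45 over 12 H4 genes. Of the 9 H3 genes, 2 are among those that fell.

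**Figure D3:**
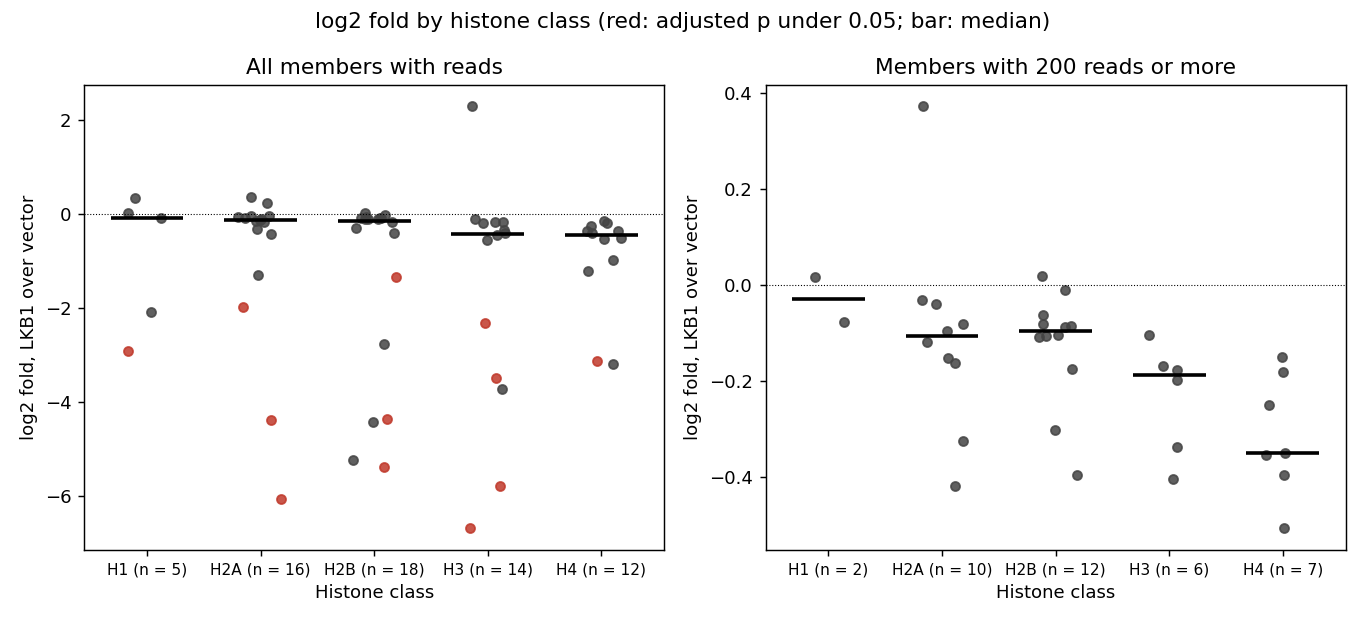
The deposited log2 fold (LKB1 over vector) of each histone gene is plotted by class, for the 65 genes with reads on the left and the 37 with at least 200 reads on the right, with a bar at the median and genes that fell in red. On the right every H3 and H4 value lies below 0, with medians of -0.19 and -0.35, while H1, H2A and H2B have 1 value above 0 each.

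All 7 H4 genes with at least 200 reads had values below 0. HIST1H4H, the most read histone gene, had a log2 fold of -0.18, and HIST1H4B, with 4894 reads in the LKB1 line and 5994 in the vector line, had -0.35 (adjusted p = 0.193). HIST4H4, which lies alone on chromosome 12 (14920933 to 14924065, minus strand, hg19), had the lowest value of all 37, with 549 reads in the LKB1 line and 750 in the vector line (log2 -0.51, adjusted p = 0.102). HIST1H4A had 1254 and 1586 reads in the LKB1 and vector lines (log2 -0.40, adjusted p = 0.187), HIST1H4C 2698 and 3083 reads, and HIST1H4J 384 and 472 reads. HIST2H4A had 298 and 318 reads and the H4 value nearest to 0, at -0.15. These H4 genes are known to encode the same protein.

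The 6 H3 genes with at least 200 reads ranged from -0.40 to -0.10 in log2 fold. HIST1H3B was the most read, with 4290 reads in the LKB1 line and 4662 in the vector line. HIST1H3H had 2116 and 2691 reads and the lowest value (log2 -0.40, adjusted p = 0.150), HIST1H3J 2295 and 2788 reads (log2 -0.34), HIST1H3C 3705 and 4006 reads and HIST1H3A 1091 and 1127 reads (log2 -0.10). HIST2H3PS2 had 174 reads in the LKB1 line and 192 in the vector line. HIST2H3D, which like HIST2H3A and HIST2H3C encodes the H3.2 protein, had 74 and 104 reads. No H3 gene outside the 2 runs passed the test.

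In the H2A class HIST1H2AC was the most read, with 5182 reads in the LKB1 line and 5268 in the vector line (log2 -0.08). HIST2H2AB had the highest log2 fold of all 37 genes, 0.37, with 704 reads in the LKB1 line and 523 in the vector line (adjusted p = 0.332). The lowest H2A value among genes with at least 40 reads was that of the testis gene HIST1H2AA, with 18 reads in the LKB1 line and 43 in the vector line (log2 -1.30, adjusted p = 0.118). HIST1H2AG had 3653 and 3900 reads, HIST1H2AM 2829 and 2782, HIST1H2AH 1967 and 2020, and HIST1H2AK 487 and 626 in the LKB1 and vector lines. In the H2B class HIST1H2BJ was the most read, with 3057 and 3166 reads (log2 -0.11). HIST1H2BB had the highest value, with 774 reads in the LKB1 line and 735 in the vector line (log2 0.02), and HIST1H2BM, with 238 and 301 reads (log2 -0.39), had the lowest value among H2B genes with at least 200 reads. HIST1H2BK had 2442 and 2894 reads, HIST1H2BD 2482 and 2696, HIST1H2BO 2737 and 2783, and HIST1H2BC 2659 and 2670. HIST1H2BK overlaps HIST1H4I on the opposite strand. HIST1H2AM overlaps HIST1H3J on the same strand, so reads of these genes could be shared.

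Of the 6 H1 genes only HIST1H1E and HIST1H1C had at least 40 reads. HIST1H1E had 5492 reads in the LKB1 line and 5568 in the vector line (log2 -0.08), and HIST1H1C had 4547 and 4324 reads (log2 0.02). HIST1H1D and the testis gene HIST1H1T had at most 11 reads over the 4 libraries, and HIST1H1A had none. The other genes with no reads were HIST1H4F and HIST3H3.

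By cluster, HIST1 genes had 71539 reads in the LKB1 line and 77675 in the vector line, a depth-scaled ratio of 0.886 (0.877 to 0.895). HIST2 genes had 4882 and 4736 reads, a ratio of 0.992 (0.952 to 1.03), and HIST2H2AB alone had 704 and 523 of these reads. No HIST2 gene was called, where 5.6% of protein-coding genes fell and 4.1% rose. The clusters differ in their mix of classes, and cluster and class were not separated. The median log2 fold of genes with at least 40 reads was -0.18 in 35 HIST1 genes and -0.07 in 8 HIST2 genes. The 3 HIST3 genes together had 4 reads in the LKB1 line and 11 in the vector line. The members with an annotated span over 2000 bases, some of which are known to give a second, longer and polyadenylated RNA, had a summed ratio of 0.894 (0.880 to 0.907), against 0.887 (0.876 to 0.899) for the others. The intervals of these ratios overlap.

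In 14 pairs 2 histone genes face away from each other with fewer than 1000 bases between them (189 to 346 bases in hg19), and 12 of these are pairs of an H2A and an H2B gene. HIST1H2BF is paired with both HIST1H2AD and HIST1H3D, whose spans overlap. HIST1H2BO is likewise paired with both HIST1H2AM and HIST1H3J. The pairs are therefore not all separate places. In all 14 pairs both genes had a log2 fold below 0. Of the histone genes with at least 200 reads, 34 of 37 (91.9%) were below 0, so this count says little about the pairing. In the 9 pairs with at least 200 reads in both genes, the log2 folds differed by 0.02 to 0.33, with a median of 0.21. HIST1H2AC and HIST1H2BC were the closest of these, at -0.08 and -0.06, and HIST1H2AK and HIST1H2BN were the farthest apart, at -0.42 and -0.09. Across the 9 pairs the Pearson correlation of the log2 folds was -0.115 and the Spearman correlation was 0.483, and neither was tested. Among the pairs with few reads, HIST1H2AA and HIST1H2BA had similar values, -1.30 and -1.33. HIST1H2AE and HIST1H2BG, whose starts lie 292 bases apart, had values of -1.98 and -4.35, from 8 and 31 reads for HIST1H2AE and 2 and 44 reads for HIST1H2BG in the LKB1 and vector lines. HIST3H2A had 3 reads in either line, and HIST3H2BB had 1 and 8.

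**Figure D4:**
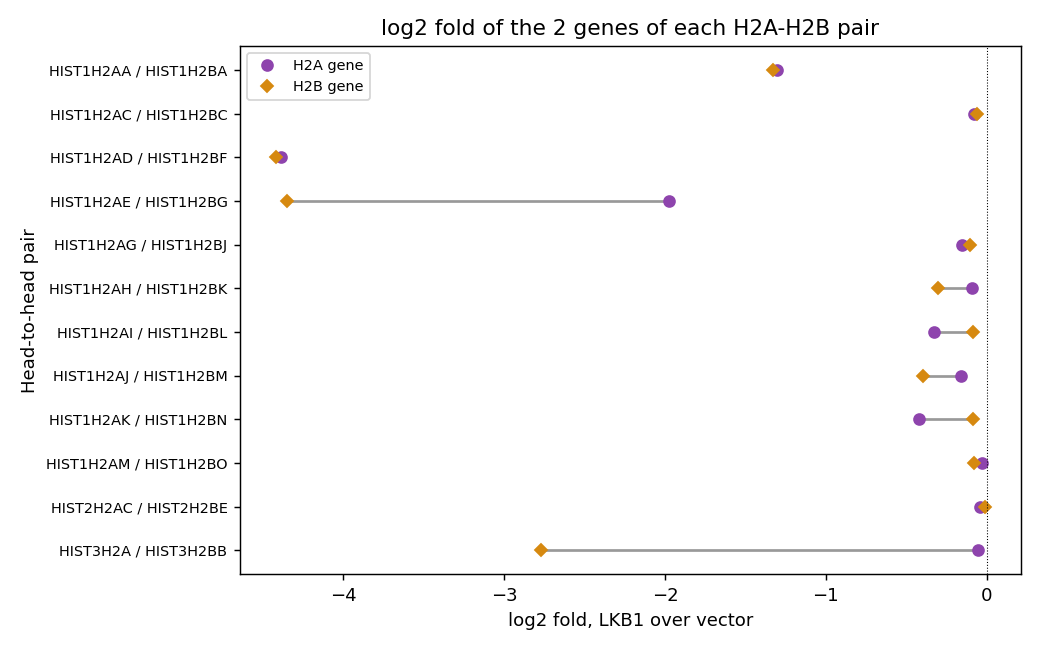
The deposited log2 fold (LKB1 over vector, horizontal axis) is plotted for both genes of the 12 pairs of an H2A and an H2B gene, joined by a line. The 8 pairs with at least 200 reads in both lie near 0 with short lines, and HIST1H2AE with HIST1H2BG and HIST3H2A with HIST3H2BB have the longest lines, at low read totals.

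Genes whose products make, guide or accompany histones were read beside these values. As background, 5.97% of protein-coding genes with at least 200 reads fell and 6.2% rose. In the list of 22 genes of histone mRNA 3′ end formation and decay none was called, and 1 was lower and 1 higher at an unadjusted p under 0.05. SLBP had 1114 reads in the LKB1 line and 1009 in the vector line (log2 0.09). CPSF2, a subunit of the cleavage complex, had 1125 and 762 reads (log2 0.51, adjusted p = 0.0927), and CSTF2 had 358 and 482 reads (log2 -0.48, adjusted p = 0.144). SYMPK, the scaffold of the cleavage complex, had 2067 and 2354 reads, and LSM10, a protein of the U7 particle, had 390 and 460. Of 9 genes of histone gene transcription 1 fell, CDK2, the kinase that activates NPAT, with 496 reads in the LKB1 line and 793 in the vector line (log2 -0.73, adjusted p = 0.000850). NPAT itself had 810 and 609 reads (log2 0.36, adjusted p = 0.343), E2F1 had 1537 and 1152 (log2 0.36, adjusted p = 0.260), and POU2F1, which binds the octamer, had 765 and 616.

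Of 11 replacement and variant histone genes, whose mRNAs carry poly(A) except that H2AFX is known to give both a polyadenylated mRNA and one that ends in the stem-loop, 1 fell and none rose, with a median log2 fold of -0.26 over the 10 with at least 40 reads. H1FX, a linker histone, fell to 766 reads in the LKB1 line, against 1045 in the vector line (log2 -0.50, adjusted p = 0.0424). H2AFZ, which encodes H2A.Z, had 3215 and 4097 reads (log2 -0.41, adjusted p = 0.130), H2AFJ 240 and 303 reads (log2 -0.39), and H1F0 1609 and 1892 reads (log2 -0.29). Of 23 histone chaperone genes 2 fell and 1 rose, with a median of 0.12. RBBP7, a subunit of several histone-binding complexes, rose to 3410 reads in the LKB1 line, against 1685 in the vector line (log2 0.96, adjusted p = 5.11e-09). TONSL had 732 and 1161 reads (log2 -0.72, adjusted p = 0.000462), and ASF1B, a chaperone of new H3 and H4, had 783 and 1065 reads (log2 -0.50, adjusted p = 0.0334). DAXX, a chaperone of H3.3, had 1084 and 1413 reads (log2 -0.44, adjusted p = 0.104).

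Of 26 genes of DNA replication and S phase 2 fell and 1 rose, with a median log2 fold of -0.10. POLA1, the catalytic subunit of DNA polymerase alpha, rose (938 reads in the LKB1 line and 478 in the vector line, log2 0.92, adjusted p = 1.75e-06). GINS4, of the replicative helicase, had 365 and 670 reads (log2 -0.93, adjusted p = 1.33e-05), and CDT1, a licensing factor, had 471 and 690 reads (log2 -0.61, adjusted p = 0.0121). FEN1, which trims Okazaki fragments, had 1290 and 1634 reads (log2 -0.40, adjusted p = 0.155). Among other RNAs without poly(A), none of 8 chosen by name was called, with 1 lower at an unadjusted p under 0.05, and the median log2 fold of the 6 with at least 40 reads was 0.01. RNY1, a Y RNA, had 3518 reads in the LKB1 line and 4782 in the vector line (log2 -0.50, adjusted p = 0.131), VTRNA1-1, a vault RNA, had 49 and 29, and RNU7-1, the U7 snRNA, had 6 and none. RPPH1, the RNA of ribonuclease P, had a log2 fold of 0.21. Of 603 snRNA rows none fell and 3 rose, and of 538 snoRNA rows 1 fell and 20 rose, where 3.24% of all genes fell and 2.55% rose. No reads were found for 256 of the snRNA and 131 of the snoRNA rows. Over the 33 snRNA rows with at least 40 reads the median log2 fold was 0.09 and 1 rose. Over the 248 such snoRNA rows the median was 0.19, and 1 fell and 15 rose. The 9 histone pseudogenes and non-coding histone rows had 203 reads in the LKB1 line and 254 in the vector line, and none was called at an adjusted or unadjusted p under 0.05.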

How the data were processed

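RNA was measured in 2 LKB1 and 2 vector libraries. Per the file headers, the authors' table holds for each gene the fold change as a ratio and as log2, with the p-value of the test before and after adjustment. Per the submitters' processing notes, hg19, edgeR 2.6.0, TopHat2 2.0.6 and CASAVA 1.8.2 were used, in roles not stated. For the read counter, its use of strand, the annotation and the fold's direction, nothing is given in the sources used here. No per-library counts were analysed here, so the count fit could not be run and the authors' p-values were used, called at an adjusted p under 0.05.

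Whole read totals per line were recovered from the fold column. Priors of 0.254868 reads (LKB1) and 0.245132 reads (vector) gave whole totals for 28113 of 28242 genes with reads (99.54%), and 27298 of these lay below 3000 reads per line, against 87 under altered constants. The totals summed to 11484516 reads in the LKB1 line and 10907802 in the vector line. Ratios are scaled by the recovered depth (1.04), with exact (Clopper-Pearson) 95% intervals, or, where a line had no reads, as a bound against 3 reads. PCR copies are not independent molecules, so both cover counting error only. As an alternative, an exact negative binomial test was run on the totals with a variation between libraries of 0.2 or 0.4 assumed. It was first checked at 0.2 only, on data simulated from the model that the test assumes. That check cannot show how the test fares under the real spread between libraries. Scripts used Python 3.11.15, numpy 2.4.6, pandas 2.3.3 and scipy 1.17.1.

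The members and lists were chosen with earlier results of these data known. Named by rule were all called members, in each class the member with the most reads and those with the highest and lowest log2 fold among members with at least 40 reads, up to 4 genes with the smallest p of each related list, and STK11. Other members and genes were named after their values were seen. Some genes of the lists are not reported here.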

Additional observations from a re-analysis of the deposited data

How the results depend on the processing

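The 12 genes lower in the LKB1 line became 8 at an adjusted p under 0.01 and stayed 12 at an adjusted p under 0.1. They became 20 at an unadjusted p under 0.05 and 4 with a minimum of 40 reads. An exact negative binomial test that assumed a variation of 0.2 between libraries called 8, and with a variation of 0.4 it called 5, which were HIST1H3G, HIST1H3D, HIST1H2BG, HIST1H3I and HIST1H2AD. With alternatives added after the data were seen, 0 were called with a minimum of 200 reads, and 10 without genes that overlap another member. The 0 genes higher became 1, HIST2H2AB, at an unadjusted p under 0.05 and stayed 0 in the other alternatives run. The cause of these differences was not tested, except that a minimum counts the same calls among fewer genes. Without a minimum the median log2 fold moved to -0.33 over all members, from -0.17, and to -0.35 in HIST1, from -0.18. Centring on the protein-coding median gave -0.48 for HIST4H4, from -0.51, and scaling to that median gave a summed ratio of 0.904, from 0.890. STK11 kept its log2 fold of 0.62 but had an adjusted p of 0.552 with an assumed variation of 0.2. The class medians kept their sign in every alternative run. Read totals below 40 leave wide intervals, and no library could be left out because the values analysed are per group. No paired analysis was possible because the values used are 1 comparison per gene with no value per library.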
